A study of Mus musculus with 4 samples.

Results

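Cells read oxygen through the hypoxia-inducible factors (HIFs), and the 10 genes described here are the core of that system and a few of its targets. They are the factor genes Hif1a, Epas1 and Arnt, the prolyl hydroxylase genes Egln1, Egln2 and Egln3, and the hypoxia targets Adm, Bnip3, Ankrd37 and P4ha1. They were chosen by gene symbol from the 22609 symbols counted in each library, and all 10 were present and were tested. Of the 10, Egln1 was called higher in the knockout, Egln3 and P4ha1 were called lower, and 7 did not pass the test. None of these 3 calls held in every fit that left out 1 library.

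RNA was sequenced from the hippocampus of ovariectomized female mice after 20 min of occlusion of both common carotid arteries, a model of global cerebral ischemia, and 24 h of reperfusion. The FLOX-control group (2 libraries) carries the floxed aromatase gene and keeps it. The GFAP-ARO-KO group (2 libraries) lacks the aromatase gene Cyp19a1 in cells that express Cre recombinase from the GFAP promoter, which is active in astrocytes. Ovariectomy, ischemia and reperfusion were common to both groups, and no sham-operated group was compared, so a difference in the response to ischemia and one present before it cannot be told apart. The labels give neither an age nor whether a library is 1 mouse or a pool, so p-values measure the spread between these libraries, which may be technical.

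Gene counts summed to between 27930696 and 34878375 reads per library. Cyp19a1 gave 3 and 2 reads in control libraries against 1 and 9 in knockout libraries, too few to check the genotype. Markers of brain tissue were abundant, with astrocyte and neuron lists at summed levels of 6589 to 7517 and 11575 to 12909 CPM (gene reads normalized to the depth of each library). Of the 10 astrocyte markers 2 rose, Glul (1.41-fold higher, edgeR adjusted p = 0.0130) and Fgfr3 (1.39-fold higher, edgeR adjusted p = 0.0467). Another 3 fell, with Gfap 1.91-fold lower (edgeR adjusted p = 0.00151) and Aqp4 2.63-fold lower (edgeR adjusted p = 0.00364). Sox9 was 1.41-fold lower (edgeR adjusted p = 0.0302). The other 5 did not pass, among them Slc1a2, the most abundant (edgeR adjusted p = 0.222). The list had a median log2 fold change of -0.08. The choice to name the called astrocyte markers was made with their values known. The second knockout library stood apart from the other 3 in the summed levels of its meningeal and mural cell markers. Its 10 meningeal markers summed to 471 CPM against 107 to 153 in the others, and its 8 mural cell markers to 364 CPM against 139 to 154. Much of the mural sum was Acta2 (114 CPM against 6.82 to 14.9 in the others) and Vtn (120 against 58.7 to 66.0). The mural markers Rgs5, Kcnj8, Abcc9 and Notch3 were not highest in that library. The 10 microglial markers summed to 466 and 519 CPM in the controls and to 248 and 252 in the knockouts, and 8 of them fell. Of 10 oligodendrocyte markers 5 fell, and of 7 tested choroid plexus markers 3 rose. In bulk tissue, fewer cells of a type and less RNA per cell cannot be told apart.

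**Figure D1:**
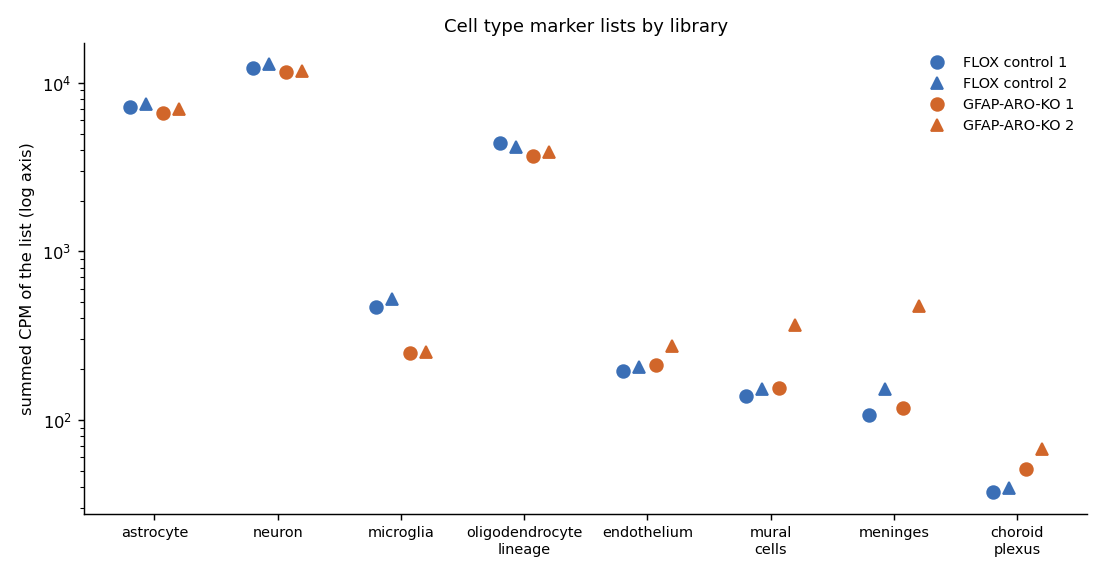
Summed CPM (log axis) of 8 lists of cell type markers in each library, with controls in blue and knockouts in orange. Meningeal and mural markers had their highest sums in the second knockout library (471 and 364 CPM). Microglial markers summed lower in both knockouts (248 and 252 CPM) than in both controls (466 and 519 CPM).

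As background, HIF1A and EPAS1 are the oxygen-regulated alpha subunits, and ARNT is their constitutive partner in the DNA-binding dimer. With oxygen present, the EGLN enzymes hydroxylate prolines of the alpha subunits, the VHL ubiquitin ligase binds the hydroxylated protein, and it is degraded. When oxygen falls the alpha subunits accumulate and switch on genes through hypoxia-response elements, among them the genes of EGLN enzymes, which thereby form a feedback loop. Most of this control acts on protein, and the read counts measure RNA only.

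The promoters of the 3 genes that passed the test, and of Ankrd37, are shown with the core of the hypoxia-response element in place. Ankrd37 did not pass, and its knockout libraries both lay above both controls, as did those of Egln2 and Epas1, which are not shown. Sequences are from RefSeq on GRCm38.p6, and 9 of the 10 genes, all but Epas1, were matched to the promoter table used. Each runs 5′ to 3′ on the gene's strand, from 250 bases before the transcription start to 50 bases from it on. Capitals mark ACGTG or GCGTG on either strand, so that CACGT and CACGC are also in capitals. The windows are chr12:54203825-54204124 (minus strand) for Egln3, chr10:59323046-59323345 (plus strand) for P4ha1, chr8:124949205-124949504 (minus strand) for Egln1 and chr8:45999801-46000100 (minus strand) for Ankrd37.
Egln3: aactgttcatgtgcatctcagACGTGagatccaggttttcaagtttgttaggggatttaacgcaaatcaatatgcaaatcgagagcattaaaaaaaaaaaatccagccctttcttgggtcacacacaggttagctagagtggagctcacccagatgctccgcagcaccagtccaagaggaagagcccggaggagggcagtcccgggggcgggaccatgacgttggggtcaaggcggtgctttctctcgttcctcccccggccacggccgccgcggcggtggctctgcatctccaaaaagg
P4ha1: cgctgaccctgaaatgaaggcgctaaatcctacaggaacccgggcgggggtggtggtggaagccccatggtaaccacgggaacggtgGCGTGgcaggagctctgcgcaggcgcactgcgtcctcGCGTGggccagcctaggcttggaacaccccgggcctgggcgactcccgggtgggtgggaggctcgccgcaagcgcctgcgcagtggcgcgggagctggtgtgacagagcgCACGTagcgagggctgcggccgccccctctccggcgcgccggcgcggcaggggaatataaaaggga
Egln1: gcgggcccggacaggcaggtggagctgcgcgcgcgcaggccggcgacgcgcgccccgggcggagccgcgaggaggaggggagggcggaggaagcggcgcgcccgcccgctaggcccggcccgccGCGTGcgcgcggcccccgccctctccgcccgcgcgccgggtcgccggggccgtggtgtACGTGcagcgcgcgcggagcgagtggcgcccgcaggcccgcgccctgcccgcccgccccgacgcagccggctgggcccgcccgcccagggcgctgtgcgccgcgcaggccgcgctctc
Ankrd37: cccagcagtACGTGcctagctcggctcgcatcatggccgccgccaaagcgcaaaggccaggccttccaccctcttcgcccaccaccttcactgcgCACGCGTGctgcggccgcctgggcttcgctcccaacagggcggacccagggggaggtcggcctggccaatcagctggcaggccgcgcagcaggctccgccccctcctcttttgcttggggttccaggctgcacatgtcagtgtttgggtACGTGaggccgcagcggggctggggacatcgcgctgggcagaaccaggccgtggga

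Each of the 9 genes held at least 1 match in its first listed promoter. Egln3 had 1, its only match beginning 229 bases before the start. P4ha1 had 3, Egln1 had 2, and Ankrd37 had 4, of which 1 began 6 bases before the start. The other 5 genes had 1 (Arnt), 2 (Adm), 3 (Hif1a), 5 (Bnip3) and 6 (Egln2). Matches on opposite strands can overlap, so that the 4 of Ankrd37 lie at 3 places, the 3 of Hif1a at 2, the 5 of Bnip3 at 4 and the 6 of Egln2 at 5. Of all 32851 promoters of this length, 43.8% held a match, 19.6% with ACGTG and 32.4% with GCGTG. Both cores contain CG, and the first promoters of these 9 genes held 9 to 60 CG pairs against a median of 7 for all promoters. Among promoters with at least 9 CG pairs, 67.4% held a match. A match is a description of letters and was not tested as a binding site.

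**Figure D2:**
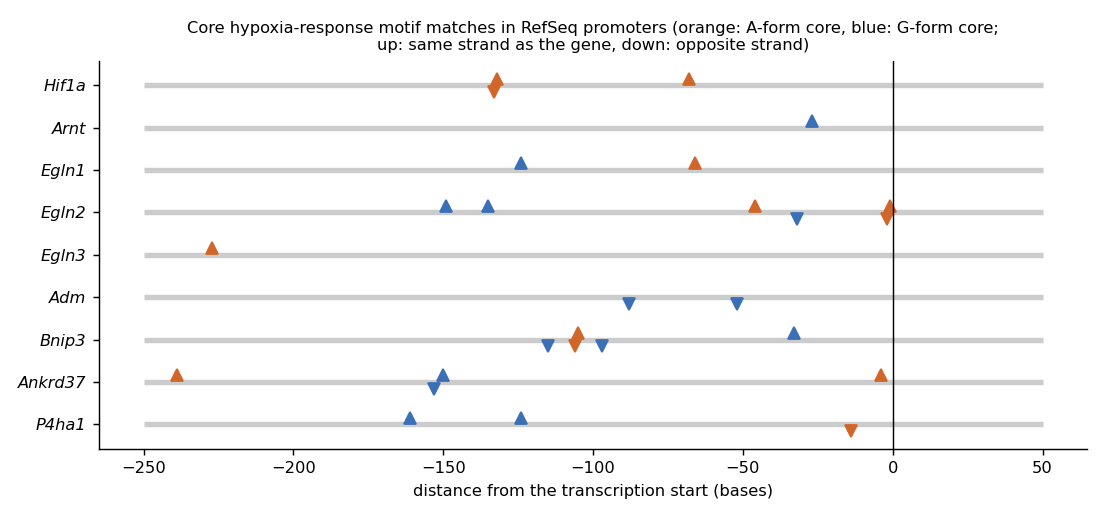
Positions of the core motif in the first listed RefSeq promoter of 9 genes, in bases from the transcription start, with the core that begins with A in orange, the core that begins with G in blue, and triangles pointing up for the gene's strand and down for the other. Egln3 has 1 match, far upstream, whereas Egln2 has 6 and Bnip3 has 5.

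Gene by gene, the comparison asked whether the transcripts of the oxygen-sensing system differed between knockout and control hippocampus after ischemia. Over all 15011 genes tested by edgeR's quasi-likelihood test, 20.4% were called at a Benjamini-Hochberg adjusted p under 0.05, with 9.39% higher and 11.0% lower. With 3 of 10 called, the share among these genes was near that background. The median log2 fold change (knockout over control) was 0.19 for the 10 genes and -8.09e-04 for all genes tested. The median of the 10 was 0.06 without the second knockout library and 0.29 without the first. The libraries of the groups did not overlap for 6 of the 10 genes, 4 higher and 2 lower, against 64.8% of all genes tested. Groups of 2 libraries allow no exact permutation p below 0.333, so the test rests on the spread shared across genes.

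**Figure D3:**
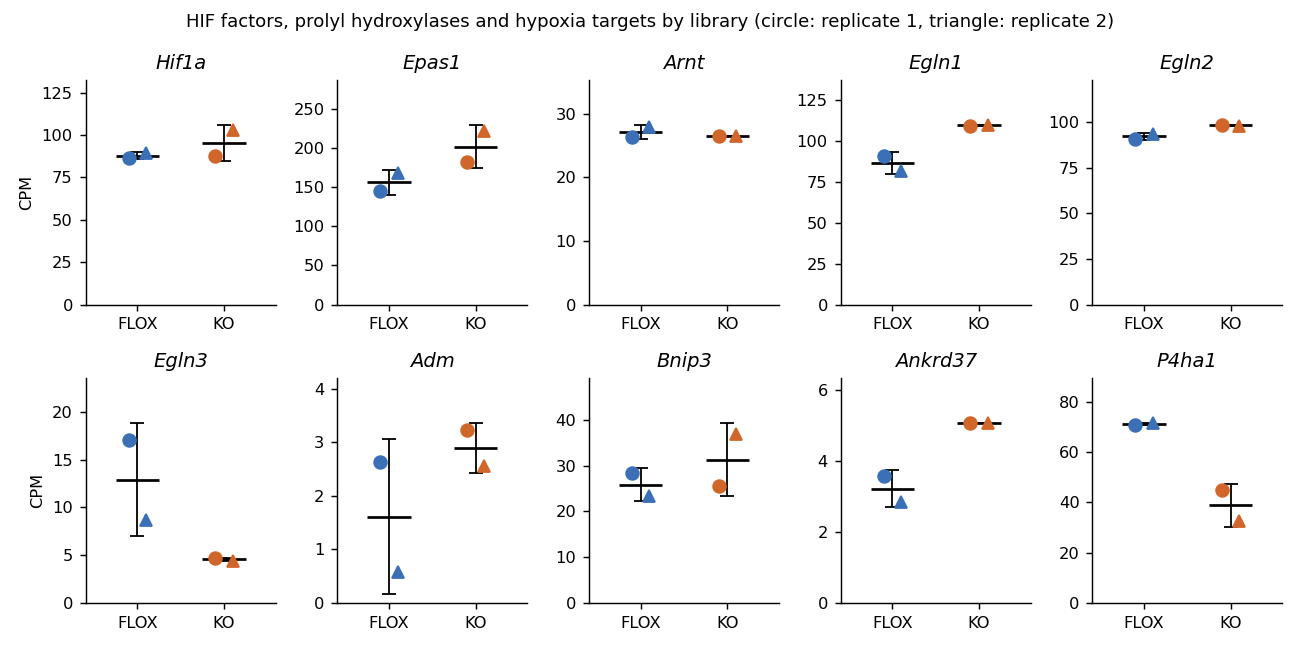
CPM of each gene in each library, with circles for replicate 1, triangles for replicate 2, a bar for the mean and whiskers for the SD (n = 2 per group); each axis starts at 0. P4ha1 lies at 70.9 and 71.4 CPM in control libraries against 44.9 and 32.8 in knockout libraries, while Hif1a, Arnt, Adm and Bnip3 overlap between the groups.

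Neither the alpha subunit genes nor the gene of their partner passed the test. Hif1a (chromosome 12, 75002362 to 75048517, plus strand, mm9) was at 86.5 and 89.1 CPM in control libraries against 87.7 and 103 CPM in knockout libraries. The groups overlapped, and only the second knockout library lay above the rest. The log2 fold change was 0.12 ± 0.11 (SE, edgeR adjusted p = 0.478). It was 0.0092 when the second knockout library was left out. A lincRNA gene that is not in the count tables overlaps it on the opposite strand. Arnt (chromosome 3, 95238310 to 95301162, plus strand) was the steadiest of the 3, at 26.4 and 28.0 CPM in control libraries against 26.5 and 26.5 CPM in knockout libraries. Its log2 fold change was -0.04 ± 0.12 (SE, edgeR adjusted p = 0.839).

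Epas1, which encodes the alpha subunit that is prominent in endothelium (chromosome 17, 87153247 to 87232750, plus strand), was at 145 and 168 CPM in control libraries against 182 and 221 CPM in knockout libraries. Both knockouts lay above both controls, and the second knockout was the highest. The log2 fold change of 0.37 ± 0.13 (SE) did not pass (edgeR adjusted p = 0.0787). It was 0.50 without the first knockout library, where it passed (edgeR adjusted p = 0.00751), and 0.23 without the second (adjusted p = 0.213). DESeq2 called it (adjusted p = 0.0362). The 10 endothelial markers summed to 196 and 205 CPM in the controls and to 210 and 274 CPM in the knockouts. Of these markers 2 rose, 1 fell and 7 did not pass, with a median log2 fold change of 0.26, which was -0.12 without the second knockout library and 0.54 without the first. The part of endothelial RNA in the level of Epas1 was not tested.

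Within each library Epas1 exceeded Hif1a. Per kilobase of exon, the ratio of Epas1 to Hif1a was 1.86 and 2.09 in control libraries against 2.31 and 2.39 in knockout libraries, so the knockouts lay above the controls. The ratio of Arnt to Hif1a was 0.225 and 0.231 in control libraries against 0.222 and 0.189 in knockout libraries. Arnt2, the paralog of Arnt that neurons express, was far more abundant than Arnt, at 421 and 432 CPM in control libraries against 465 and 452 CPM in knockout libraries, and missed the threshold (log2 fold change 0.11 ± 0.09, edgeR adjusted p = 0.414).

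The prolyl hydroxylase genes went different ways. Egln3, whose enzyme is the most hypoxia-inducible of the 3 (chromosome 12, 55279968 to 55304847, minus strand), was at 17.1 and 8.72 CPM in control libraries against 4.67 and 4.43 CPM in knockout libraries. Both knockouts lay below both controls, and the first control was 1.96 times as high as the second. Its level was 2.83-fold lower in the knockout, a log2 fold change of -1.50 ± 0.34 (SE, edgeR adjusted p = 0.0255). The call was lost without the first control (log2 fold change -0.93, adjusted p = 0.0897), the first knockout (adjusted p = 0.201) or the second knockout (adjusted p = 0.152), and held without the second control (log2 fold change -1.91, adjusted p = 0.00601).

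Egln1, the main oxygen sensor among these enzymes (chromosome 8, 127432496 to 127473154, minus strand), was at 91.0 and 81.7 CPM in control libraries against 109 and 110 CPM in knockout libraries. The groups did not overlap, and the knockouts were close together. It was 1.27-fold higher, a log2 fold change of 0.34 ± 0.10 (SE), and passed narrowly (edgeR adjusted p = 0.0489). It was called in 7 of 13 alternative fits. The call was lost with no filter on low counts (edgeR adjusted p = 0.0559), with limma-voom (adjusted p = 0.0513) and with a block for replicate number (edgeR adjusted p = 0.0602). It was also lost without the first control (log2 fold change 0.43), the second control (0.26) or the second knockout (0.35). Egln2 (chromosome 7, 27943677 to 27951821, minus strand) was at 91.1 and 93.6 CPM in control libraries against 98.6 and 98.0 CPM in knockout libraries. The knockouts lay above the controls by a small margin, and the gene overlaps Cyp2t4 on the opposite strand. Egln2 had a log2 fold change of 0.09 ± 0.09 (SE, edgeR adjusted p = 0.514).

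The 3 enzyme genes kept their order of level per kilobase of exon in every library. In CPM, Egln1 lay below Egln2 in both controls and above it in both knockouts. Shares of the 3 genes in their summed level are given without a test. Per kilobase of exon, Egln3 made up 9.90% and 5.47% of their summed level in control libraries against 2.58% and 2.45% in knockout libraries. The share of Egln1 was 39.9% and 38.8% in control libraries against 45.7% and 46.0% in knockout libraries. By this measure Egln2 was the most abundant in every library, at 50.2% to 55.8% of the sum, and its share overlapped between the groups.

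**Figure D4:**
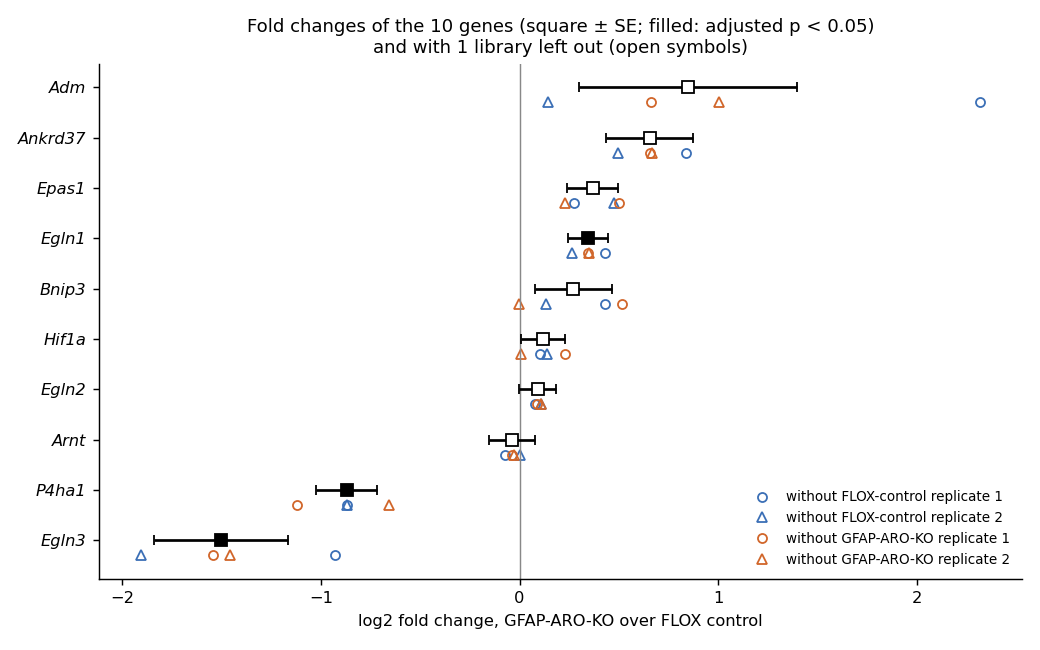
Log2 fold change of each gene (square, with SE; filled where the adjusted p is under 0.05) and the same value with 1 library left out (open symbols, blue for a control and orange for a knockout). Egln3 and P4ha1 stay below 0 in all 4 such fits, whereas Adm ranges from 0.14 to 2.32.

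Of the hypoxia targets, P4ha1 fell and Ankrd37, Adm and Bnip3 did not pass. P4ha1 encodes a catalytic subunit of collagen prolyl 4-hydroxylase, which stabilizes collagen (chromosome 10, 58786044 to 58836052, plus strand). It was at 70.9 and 71.4 CPM in the controls, which were nearly equal, and at 44.9 and 32.8 CPM in the knockouts. Both knockouts lay well below, and the second was the lower. The level was 1.83-fold lower, a log2 fold change of -0.87 ± 0.15 (SE, edgeR adjusted p = 0.0100). The adjusted p was 0.0502 without the first control and 0.0538 without the second, with a log2 fold change of -0.87 in both fits. The log2 fold change was -1.12 without the first knockout library and -0.66 without the second, and the gene passed in both.

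Ankrd37, a small ankyrin repeat protein gene that HIF induces (chromosome 8, 47082256 to 47085221, minus strand), was at 3.58 and 2.85 CPM in control libraries against 5.07 and 5.07 CPM in knockout libraries. These are 120, 93, 178 and 143 reads. The knockouts lay above both controls and were equal at this rounding. The log2 fold change of 0.66 ± 0.22 (SE) did not pass (edgeR adjusted p = 0.0711), nor did it in any of the 13 alternative fits. It overlaps Lrp2bp and Ufsp2 on the opposite strand by 565 and 57 bases. If counting ignored strand, reads there could be given to the wrong gene or left out as ambiguous.

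Adm encodes adrenomedullin, a vasodilator peptide (chromosome 7, 117771175 to 117773331, plus strand), and was the least abundant of the 10 genes. It gave 88 and 19 reads in control libraries against 113 and 72 in knockout libraries, or 2.63 and 0.581 CPM against 3.22 and 2.55 CPM. The second control was low, and the first control lay between the knockouts. The log2 fold change was 0.85 ± 0.55 (SE, edgeR adjusted p = 0.309), 0.14 without the second control and 2.32 without the first, where it passed (adjusted p = 0.0349).

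Bnip3 encodes a mitochondrial protein of the BCL2 family that promotes mitophagy (chromosome 7, 146082519 to 146101202, minus strand). It was at 28.4 and 23.3 CPM in control libraries against 25.6 and 36.9 CPM in knockout libraries. The first knockout lay between the controls, and only the second was high. The log2 fold change was 0.27 ± 0.19 (SE, edgeR adjusted p = 0.357), with 0.52 and a pass without the first knockout (adjusted p = 0.0193) and -0.0028 without the second. Of its 50-base exon windows, 39.1% occur once in the mm9 genome, so most reads from this gene could align at several places and would not be counted. The 9 other genes had 97.1% to 100% of such windows unique.

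The second knockout library was the highest of the 4 for Hif1a, Epas1 and Bnip3 and the lowest for Egln3 and P4ha1. It was also the highest for Egln1 (1.01 times the first knockout) and Ankrd37 (equal to the first knockout at the rounding given). Its meningeal and mural marker lists also had the highest sums (471 and 364 CPM), and their part in the results was not tested. Without that library P4ha1 passed, and Egln3 (log2 fold change -1.46, edgeR adjusted p = 0.152) and Egln1 (0.35, edgeR adjusted p = 0.0612) did not.

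Levels among the genes were compared per kilobase of exon. Egln2 (mean of 4 libraries 34.0 CPM per kilobase), Epas1 (33.7) and Egln1 (27.9) formed the upper group, in which neighbouring genes overlapped over the libraries. Hif1a (15.5), P4ha1 (13.4) and Bnip3 (12.6) followed, again overlapping, and lay below the upper group in every library. The lower group was Arnt (3.35), Egln3 (3.28), Ankrd37 (2.95) and Adm (1.62), with neighbours overlapping. The order within these lower groups differed between knockout and control. In the control mean P4ha1 (17.3) lay above Hif1a (14.9) and Egln3 (4.85) above Arnt (3.40). In the knockout mean P4ha1 (9.43) lay below Bnip3 (13.8), and Egln3 (1.71) was the lowest of the 10, below Adm (2.08). The level of Bnip3 is understated by the share of its reads that align at several places. With the longest transcript as the length, P4ha1 and Bnip3 changed places, as did Egln3 and Ankrd37.

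The lists of related genes are read against the same 20.4% called and median of -8.09e-04 over all genes tested. Among 18 partners and regulators of the HIFs, 2 rose, 2 fell and 14 did not pass, with a median log2 fold change of 0.11 (0.07 without the first knockout). Hif3a, which encodes a further alpha subunit that can restrain the others, was at 6.84 and 8.35 CPM in control libraries against 23.4 and 29.6 CPM in knockout libraries. Both knockouts were far above both controls. It rose 3.48-fold (log2 fold change 1.80 ± 0.18, edgeR adjusted p = 0.00178) and was called in all 13 alternative fits. P4htm, a transmembrane prolyl hydroxylase gene, rose by 0.47 ± 0.10 (log2, edgeR adjusted p = 0.0161). Hif1an, the asparaginyl hydroxylase that blocks coactivator binding, was at 60.3 and 60.5 CPM in control libraries against 46.9 and 44.2 CPM in knockout libraries and fell by 0.41 ± 0.10 (log2, edgeR adjusted p = 0.0303). Gnb2l1, which encodes the scaffold RACK1, fell by 0.49 ± 0.11 (log2, edgeR adjusted p = 0.0196) and overlaps Trim41 and snoRNA genes. Hsp90ab1, the most abundant of the list, did not pass (log2 fold change 0.18 ± 0.11). Hif3a kept its call in both fits that left out a control, in which fewer genes were also called over all genes tested. The lost calls without the first control were P4htm (edgeR adjusted p = 0.0918), Gnb2l1 (0.154) and Hif1an (0.179). Without the second control they were P4htm (0.127) and Hif1an (0.180), and without the second knockout Hif1an (0.0571).

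Of 33 other hypoxia-induced genes listed, 31 were tested, and 4 rose, 3 fell and 24 did not pass, with a median log2 fold change of 0.18. That median had no stable sign, at -0.01 without the first knockout library, 0.10 without the second control and 0.25 without the first control. Eno1 and Epo, with 1 and 0 reads over the 4 libraries, were not tested. Only 32.2% of the windows of Eno1 are unique in the genome. For Pgk1 the share was 9.80%, for Ero1l 45.3%, for Bnip3l 70.5% and for Ldha 72.7%.

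Among the genes that rose, Angptl4, a lipoprotein lipase inhibitor, was at 3.32 and 3.85 CPM in control libraries against 8.74 and 19.1 CPM in knockout libraries (log2 fold change 1.94 ± 0.40, edgeR adjusted p = 0.0218). Ddit4, an inhibitor of mTOR signaling, was at 57.1 and 33.9 CPM against 84.4 and 90.9 CPM and rose by 0.95 ± 0.23 (log2, edgeR adjusted p = 0.0345). Slc2a1, the glucose transporter of the blood-brain barrier, was at 127 and 109 CPM against 178 and 168 CPM and rose by 0.55 ± 0.11 (log2, edgeR adjusted p = 0.0142). For all of these the knockouts lay above the controls. The histone demethylase gene Kdm3a rose by 0.37 ± 0.10 (log2, edgeR adjusted p = 0.0427). Without the first control the calls of Angptl4 (edgeR adjusted p = 0.149) and Kdm3a (0.269) were lost. Without the second control all 4 were lost (Angptl4 0.135, Ddit4 0.0609, Slc2a1 0.121, Kdm3a 0.180). Ddit4 was also lost without the first knockout (0.263) and the second (0.206).

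Among those that fell, Car9, a carbonic anhydrase gene, gave 34 and 44 reads in control libraries against 10 and 5 in knockout libraries (log2 fold change -2.30 ± 0.46, edgeR adjusted p = 0.0156). Hmox1, which encodes the heme-degrading enzyme heme oxygenase, fell by 0.61 ± 0.14 (log2, edgeR adjusted p = 0.0249). The glycolytic genes Aldoa (log2 fold change -0.10 ± 0.10) and Ldha (-0.21 ± 0.12) did not pass. The microglial marker list was also lower in both knockouts, as given above, and its part in these falls was not tested. The number of these 31 genes called depended on the library left out, as did the number called over all genes tested. Hmox1 lost its call without the first control (edgeR adjusted p = 0.203) and the second (0.0984), and Car9 likewise (0.0560 and 0.114). Ldha passed without the first knockout (0.0218).

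**Figure D5:**
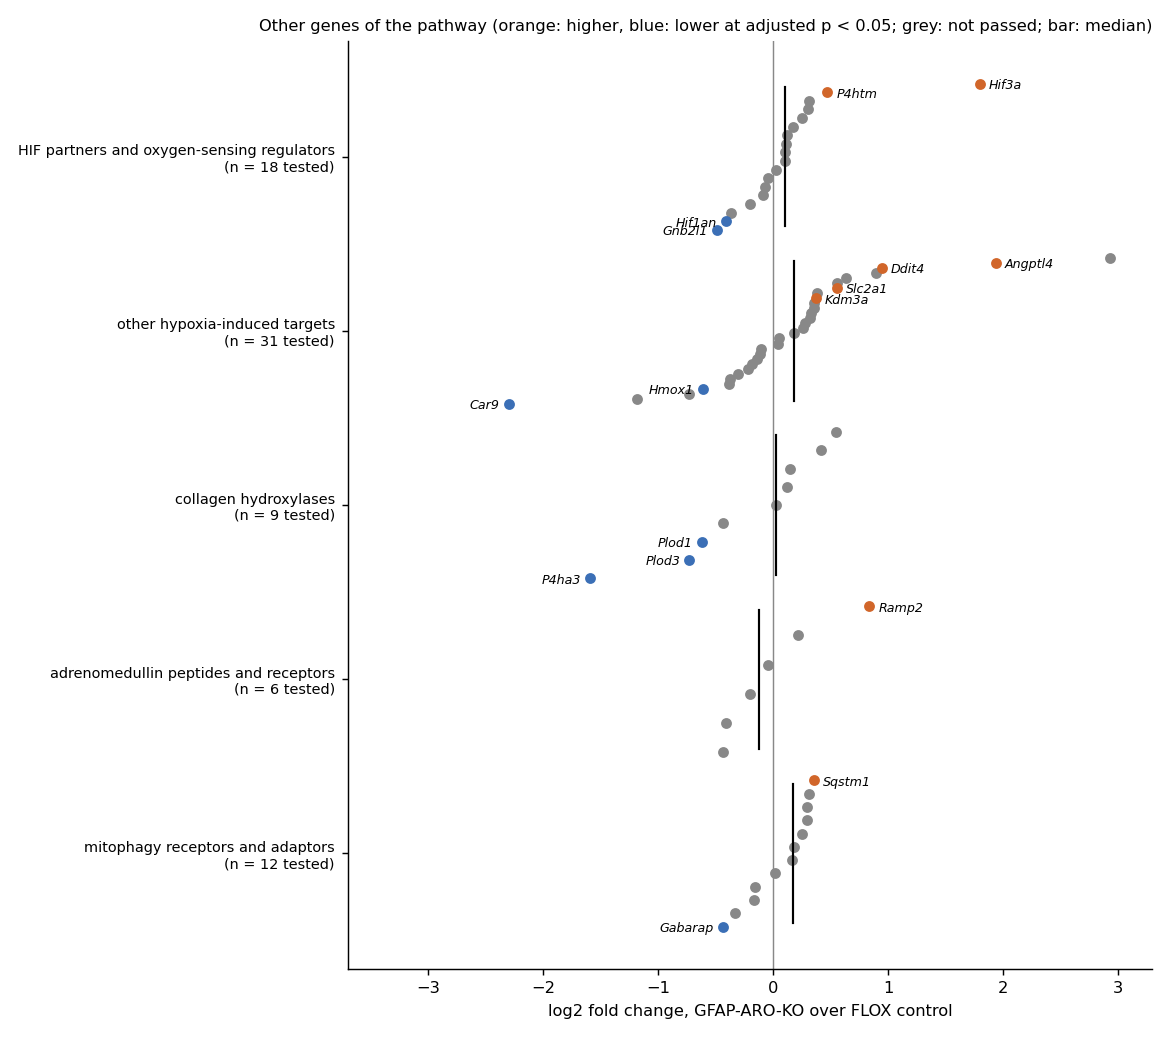
Log2 fold change of the tested genes (1 not drawn) in 5 lists of related genes, with genes called higher in orange, called lower in blue, and the others in grey; the vertical bar is the median of the list. Hif3a (1.80) and Angptl4 (1.94) are the highest called genes drawn, and Car9 (-2.30) and P4ha3 (-1.59) the lowest.

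Genes that act beside single targets were described next. Of 9 tested genes in the list of collagen hydroxylases, which leaves out P4ha1 and Plod2, 3 fell and 6 did not pass (median log2 fold change 0.03, and -0.02 without the first control). P4ha3, another catalytic subunit gene, was at 6.15 and 6.06 CPM in control libraries against 1.91 and 2.16 CPM in knockout libraries, with the groups far apart. It fell by 1.59 ± 0.22 (log2, edgeR adjusted p = 0.00451) and was called in all 13 alternative fits. The lysyl hydroxylase genes Plod3 and Plod1 fell by 0.73 ± 0.18 and 0.62 ± 0.14 (log2, edgeR adjusted p = 0.0293 and 0.0210). Plod3 overlaps Znhit1. P4hb, the shared second subunit, was at 165 and 167 CPM in control libraries against 167 and 171 CPM in knockout libraries (log2 fold change 0.03 ± 0.09), and Leprel2 was at 0.12 ± 0.14. Only P4ha3 kept its call with the first or the second control left out, where fewer genes were also called over all genes tested. Plod3 and Plod1 had edgeR adjusted p = 0.0846 and 0.0821 without the first control, and 0.160 and 0.168 without the second.

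Of 6 tested genes of adrenomedullin-type peptides and receptors, 1 rose and 5 did not pass (median log2 fold change -0.12). The median was 0.24 without the first control and 0.01 without the first knockout, and -0.28 without the second control. Adm2 and Calcb had too few reads to be tested. Ramp2, the receptor subunit that makes the calcitonin receptor-like receptor respond to adrenomedullin, was at 16.2 and 19.8 CPM in control libraries against 31.7 and 32.6 CPM in knockout libraries. Both knockouts were above both controls, and it rose by 0.84 ± 0.14 (log2, edgeR adjusted p = 0.00809), a call lost without the first control (adjusted p = 0.0675). It overlaps Vps25. Ramp1 (log2 fold change -0.20 ± 0.11) and the scavenging receptor gene Cxcr7 (-0.04 ± 0.20) did not pass.

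Of 12 genes of mitophagy and its adaptors, 1 rose, 1 fell and 10 did not pass (median log2 fold change 0.17, and 0.10 without the second control). Sqstm1, which encodes the cargo adaptor p62, was at 545 and 530 CPM in control libraries against 692 and 682 CPM in knockout libraries and rose by 0.35 ± 0.09 (log2, edgeR adjusted p = 0.0269). Sqstm1 overlaps the gene 3010026O09Rik. Gabarap, which encodes an autophagosome protein, was at 176 and 180 CPM against 127 and 135 CPM and fell by 0.44 ± 0.09 (log2, edgeR adjusted p = 0.0182). Gabarapl1 (log2 fold change 0.02 ± 0.09) and Pink1 (0.30 ± 0.11) did not pass. Both calls were lost without the first control (edgeR adjusted p = 0.135 for Sqstm1 and 0.105 for Gabarap) and without the second (0.182 and 0.126). Of the called genes in these 5 lists, only Hif3a and P4ha3 were called in all 4 fits that left out 1 library.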

How the data were processed

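The authors deposited raw read counts per gene symbol for each library. Per the labels' protocols, total RNA was sequenced as 50-base single-end reads, and the submitters' processing notes name bcl2fastq, TopHat2 2.0.8b, HTSeq and mm9. For the HTSeq version, the annotation and the strand setting nothing is stated (not given in the sources used here). HTSeq's 5 tally rows held 45.2% to 47.3% of each library (multiple alignments 35.7% to 37.4%) and were left out.

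Genes passing edgeR's filterByExpr (minimum count 10) were scaled by TMM and tested with the quasi-likelihood test (edgeR 4.0.16, R 4.3.3), with Benjamini-Hochberg adjustment over 15011 genes, of which 5473 had an unadjusted p under 0.05. SEs are the log2 fold change over the square root of F. CPM values use TMM-scaled totals, and SDs are over 2 libraries. A count of 3 reads corresponds to 0.0855 to 0.106 CPM. Alternatives were other scalings and filters, other edgeR settings, DESeq2 1.42.0, limma-voom (limma 3.58.1), a replicate block and leaving out each library. The script was tested on simulated data.

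Exon lengths and overlaps come from GENCODE vM1 (mm9), and uniqueness from 50-base windows of that genome. The promoter build (GRCm38.p6) differs from the build of the counts, and no coordinate was converted. Members and lists were chosen with earlier results of these data known. From each list of related genes the text names up to 5 genes with the largest rise and fall among those called and the 2 most abundant that did not pass. The levels or fold changes of Plod2 and Vegfa are given outside this rule. A further called gene of the other hypoxia-induced targets is in the counts and median of its list and is not reported here.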

Additional observations from a re-analysis of the deposited data

How the results depend on the processing

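Of 130 refits of the 10 genes, 112 kept direction and side of the threshold, 11 lost a call, 5 gained one and 2 changed sign. Genes called higher numbered 0 with no filter, 2 with DESeq2, 0 with limma-voom and 0 to 3 with 1 library left out, and genes called lower 0 to 1 with 1 left out. Over all genes, leaving out 1 library gave 813 to 4821 calls. The list counts then ranged over 1 to 7 (HIF partners and regulators), 1 to 14 (other targets), 1 to 3 (collagen hydroxylases), 0 to 2 (adrenomedullin genes) and 0 to 3 (mitophagy). Where a library is left out, the lone library of its group is assumed to vary like the other group. The signs that changed were those of Arnt (-0.0728 to 0.000348), Bnip3 (-0.0028 to 0.515), Aldoa (-0.213 to 0.00875), Cxcr7 (-0.288 to 0.268), Vtn (-0.0979 to 0.922) and Igf2 (-0.171 to 2.84), and the causes were not tested. The replicate block gave 3194 calls against 3061, called Epas1 (adjusted p = 0.0415) and did not call Egln1 (0.0602) or Kdm3a (0.0612). The labels do not say whether same-numbered libraries belong together. Their deviations from the group means correlated at -0.0165 over genes, which with 2 libraries per group cannot settle it. Few reads limit Car9 (5 to 44 reads per library) among the named genes tested and leave Cyp19a1 without a usable check. Adm (19 to 113 reads) is limited also by the 4.52-fold gap between its controls.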

Other observations

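The control libraries differed from each other in 2 of the 10 genes far more than most genes did; these values were looked at after the data were seen. Adm was 4.52 times as high in the first control as in the second, and 0.413% of the tested genes with reads in these libraries had a ratio between the controls at least that large in either direction. For Egln3 the ratio was 1.96, reached by 3.06% of genes, and the median over tested genes was 1.09. Between the knockouts Egln3 differed by 1.05 times and Adm by 1.26 times, while the widest ratios among the 10 genes were those of Bnip3 (1.44) and P4ha1 (1.37).

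Among vessel and barrier genes outside the HIF lists, the endothelial markers did not move together. Pecam1, an adhesion molecule gene, was at 20.3 and 20.4 CPM in control libraries against 36.6 and 47.8 CPM in knockout libraries (log2 fold change 1.05 ± 0.15, edgeR adjusted p = 0.00525). Ly6c1 was at 24.6 and 24.0 CPM against 44.8 and 45.0 CPM (0.88 ± 0.11, edgeR adjusted p = 0.00359). Flt1, a receptor for VEGF, went the other way, at 39.2 and 41.9 CPM against 21.1 and 23.7 CPM (-0.86 ± 0.12, edgeR adjusted p = 0.00491). These 3 were named after their values were seen. Vegfa, its ligand gene, belongs to the other hypoxia-induced genes above and did not pass (-0.38 ± 0.23, edgeR adjusted p = 0.277). It was at 58.6 and 52.6 CPM in control libraries against 53.2 and 32.1 CPM in knockout libraries, so only the second knockout was low.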
